A study of Mus musculus with 12 samples.

Results

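The 116 small nucleolar RNAs (snoRNAs) and Cajal body RNAs among the 20540 genes with deposited values were examined in mouse oligodendrocyte progenitor cells (OPCs). They were taken by symbol alone: 36 names that begin with Snora and a number (H/ACA box snoRNAs), 71 that begin with Snord (C/D box snoRNAs) and 9 that begin with Scarna (small Cajal body RNAs). Of these, 71 reached at least 1 CPM in at least 3 of the 12 libraries and are called measured. CPM is the read count scaled to the library's assigned reads, with the authors' normalization kept. The measured RNAs are 29 H/ACA, 36 C/D and 6 Cajal body RNAs. The other 45 are called not measured.

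A snoRNA is a short, stable RNA that pairs with another RNA and brings a modifying enzyme to it. H/ACA snoRNAs carry dyskerin, which turns uridine into pseudouridine, and C/D snoRNAs carry fibrillarin, which methylates ribose; most act on ribosomal RNA in the nucleolus. Cajal body RNAs use the same boxes to modify the small nuclear RNAs of the spliceosome. Most vertebrate members are cut from introns of host genes, and a few, such as Scarna2 and Snord118 (the U8 snoRNA), have promoters of their own.

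OPCs, the dividing precursors of myelinating oligodendrocytes, were taken from the brain of C57BL/6 mice aged 6 to 7 postnatal days and grown in SATO medium with, in the labels' wording, PDGFRA. They were transfected with a control mimic or a miR-27a mimic, synthetic RNAs that stand in for a mature microRNA. Both mimics carried biotin, so whole-cell libraries of both kinds are also from cells that held a biotin-tagged mimic. RNA was sequenced from whole cells and from the biotin pulldown, which gave 4 groups of 3 libraries: whole-cell control, whole-cell miR-27a, pulldown control and pulldown miR-27a. The labels do not say whether replicates are independent cultures. The p-values therefore reflect only how these libraries vary, and that variation may be technical.

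The libraries held 15548418 to 24972188 assigned reads. Summed levels of 5 OPC markers were 896.9 to 964 CPM in the 6 whole-cell libraries and 1978 to 2392 CPM in the 6 pulldown libraries, and all 5 were detected. Astrocyte markers (Gfap, Aqp4, Aldh1l1, Slc1a2) summed to 5215 to 6297 CPM in whole-cell and 2788 to 4065 CPM in pulldown RNA, so the cultures held RNA of other glia. None of these 9 defining markers was at 0, and the 4 microglial markers together stayed at 7.81 to 15.4 CPM. The 4 Y-linked genes Ddx3y, Eif2s3y, Kdm5d and Uty summed to 408 to 458 CPM in whole-cell and 91.4 to 148 CPM in pulldown libraries, while Xist was at 95 to 119 and 315 to 407 CPM. Marker levels therefore differ between pulldown and whole-cell libraries beside every such comparison below. The labels do not say whether pulldown and whole-cell RNA came from the same cultures, so the whole-cell libraries may not represent the cells that were pulled down from. Markers also differ between the mimics. Astrocyte markers summed to 6265 to 6297 CPM in whole-cell control against 5215 to 5266 CPM in whole-cell miR-27a, and to 3910 to 4065 against 2788 to 2991 CPM in pulldown RNA. The 4 endothelial and mural markers summed to 45.1 to 56.5 against 20.2 to 23.2 CPM, and to 30.0 to 30.9 against 8.40 to 13.2 CPM. The part of these marker differences in the results was not tested. In bulk RNA, fewer cells of a type and less RNA per cell cannot be told apart.

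Sequences of the RNAs on which the results turn are shown with their box motifs, read from GENCODE M21 models on GRCm38. The first set holds H/ACA RNAs, with capitals on the ACA within the last 10 bases. Snora73a (chr4:132352775-132352979, minus strand) and Snora73b (chr4:132352322-132352526, minus strand) are the most abundant H/ACA pair, act in early cleavage of the ribosomal RNA precursor, and match at 198 of 205 aligned bases, so reads could be split between them. Snora78 (chr17:24719676-24719803, minus strand) is the H/ACA RNA called between the mimics in pulldown RNA by the widest margin.
Snora73a: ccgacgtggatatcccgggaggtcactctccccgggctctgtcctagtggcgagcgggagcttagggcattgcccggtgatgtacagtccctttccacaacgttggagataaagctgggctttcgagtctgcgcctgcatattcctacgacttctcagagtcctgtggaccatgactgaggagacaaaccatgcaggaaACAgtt
Snora73b: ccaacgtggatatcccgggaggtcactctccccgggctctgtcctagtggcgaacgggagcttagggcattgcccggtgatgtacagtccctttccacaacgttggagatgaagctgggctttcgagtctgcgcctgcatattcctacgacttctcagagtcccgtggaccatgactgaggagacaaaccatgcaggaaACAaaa
Snora78: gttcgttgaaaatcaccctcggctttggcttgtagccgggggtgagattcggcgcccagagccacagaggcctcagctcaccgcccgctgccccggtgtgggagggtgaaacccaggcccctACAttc

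The second set holds C/D RNAs, with capitals on the C box (NTGATGA within the first 30 bases) and the D box (CTGA within the last 20). Snord49a (chr11:62603450-62603521, plus strand) and Snord52 (chr17:34950952-34951017, minus strand) were among the C/D RNAs with the largest pulldown differences. Snord118 (chr11:69073427-69073561, plus strand), the U8 snoRNA needed for maturation of the large ribosomal subunit RNAs, has no match to the C box as searched.
Snord49a: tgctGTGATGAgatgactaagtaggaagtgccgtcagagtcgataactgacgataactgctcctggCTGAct
Snord52: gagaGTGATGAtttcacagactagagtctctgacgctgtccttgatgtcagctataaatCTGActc
Snord118: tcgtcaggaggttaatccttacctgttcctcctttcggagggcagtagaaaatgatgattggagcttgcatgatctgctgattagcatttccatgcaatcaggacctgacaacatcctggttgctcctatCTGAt

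The last set holds the mature miR-27a-3p (RefSeq, GRCm38.p6, chr8:84208727-84208747, plus strand), with its seed, bases 2 to 8, in capitals, and 3 Cajal body RNAs. For these the RefSeq gene is shorter than the GENCODE one, and its stretch is shown: 71 of 325 bases of Scarna10 (chr6:125186361-125186431, minus strand), 61 of 414 bases of Scarna2 (chr3:108554342-108554402, minus strand) and 42 of 70 bases of Scarna9 (chr9:15326289-15326330, minus strand). Capitals in Scarna9 mark ACTGTGAA, the 8mer complementary to the seed.
mmu-miR-27a-3p: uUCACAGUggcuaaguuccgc
Scarna10: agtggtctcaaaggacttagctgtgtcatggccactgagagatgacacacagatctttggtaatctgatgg
Scarna2: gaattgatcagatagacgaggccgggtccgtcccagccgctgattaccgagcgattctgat
Scarna9: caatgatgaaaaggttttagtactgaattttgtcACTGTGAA

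On the strand of the RNA, the C box letters were found in 45 of 70 C/D sequences (64.3%) and in 0 of 36 H/ACA sequences. CTGA near the 3′ end was found in 68 of 70 C/D (97.1%) and 4 of 36 H/ACA sequences (11.1%). ACA near the 3′ end was found in 34 of 36 H/ACA (94.4%) and 8 of 70 C/D sequences (11.4%). Most RNAs thus carry the box that their symbol names. Of the 9 Cajal body RNAs, 4 held the C box letters (Scarna6, Scarna9, Scarna10 and Scarna17) and 4 the ACA (Scarna3a, Scarna3b, Scarna8 and Scarna13). Among 1442 other GENCODE snoRNA and scaRNA transcripts, the 3 motifs were in 20.1%, 32.2% and 48.7%.

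Most members were barely detected. Mean levels over the 12 libraries ran from 0.72 to 175 CPM with a median of 2.34 over the 29 measured H/ACA RNAs, from 0.73 to 33.6 CPM with a median of 1.57 over the 36 measured C/D RNAs, and from 2.25 to 256 CPM with a median of 21.8 over the 6 measured Cajal body RNAs. Only 18 of 116 had a mean of 5 CPM or more. Measured members held 171 to 61074 reads over all libraries, and 1 read was worth 0.039 to 0.067 CPM. Near the filter, the third-highest library was at 1.01 CPM for Snord34 and 1.02 CPM for Snora15, both measured, and at 0.96 CPM for Snora30 and 0.92 CPM for Snord35a, both not measured.

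The C/D class lost 49.3% of its members to the 1 CPM rule and the H/ACA class 19.4%. The 7 H/ACA RNAs not measured were Snora19, Snora20, Snora30, Snora35, Snora36b, Snora47 and Snora75. The 35 C/D RNAs not measured were Snord1b, Snord1c, Snord4a, Snord8, Snord11, Snord23, Snord35a, Snord35b, Snord37, Snord38a, Snord42a, Snord49b, Snord55, Snord57, Snord61, Snord65, Snord66, Snord67, Snord68, Snord69, Snord70, Snord71, Snord82, Snord87, Snord88a, Snord88c, Snord89, Snord90, Snord91a, Snord92, Snord98, Snord110, Snord116, Snord116l2 and Snord123. The 3 Cajal body RNAs not measured were Scarna3a, Scarna3b and Scarna8. These 45 held 1 to 190 reads each. Snord116, from the imprinted cluster deleted in Prader-Willi syndrome, had 10 reads and its relative Snord116l2 had 1 read over all 12 libraries.

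Longer RNAs had higher levels in these libraries. Of the 60 members whose GENCODE model is under 100 bases, 31 were measured and their median mean level, unmeasured ones included, was 0.735 CPM. Of the 48 with 100 or more but under 200 bases, 33 were measured, with a median of 1.61 CPM. All 7 with 200 bases or more were measured, with a median of 72.4 CPM. Across the 71 measured RNAs, which share libraries and depth, Spearman's rho between length and mean CPM was 0.43. Within the 36 C/D RNAs it was 0.22. Within the 29 H/ACA RNAs it depended on the annotation, at 0.18 with GENCODE and 0.59 with RefSeq lengths. The cause of the relation was not tested.

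**Figure D1:**
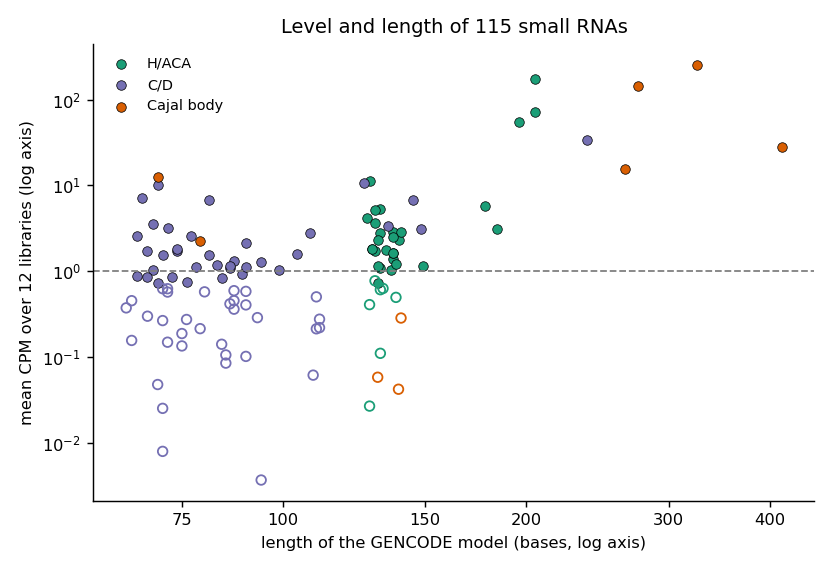
Mean CPM over 12 libraries against the length of the GENCODE model in bases, both on log axes, for 115 RNAs colored by class; filled points are measured, open points are not, and the dashed line is 1 CPM. All 7 RNAs of 200 bases or more are filled, and open points lie mostly among C/D RNAs under 100 bases.

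A handful of RNAs carried each class. Scarna10, a guide for the U5 small nuclear RNA that has both kinds of box, held 55.6% of the Cajal body CPM, and with Scarna13 87.2%. Snora73a held 46.3% of the H/ACA CPM, and with Snora73b and Snora74a 80.1%. The C/D class was less uneven: Snord17 held 25.1%, and with Snord22 and Snord104 40.5%. Per kilobase of GENCODE length, Snora73a came first with 853 CPM per kb, before Scarna10 (786), Scarna13 (527) and Snora73b (353). With RefSeq lengths Scarna10 came first, with 3600 CPM per kb, and Scarna2 moved from 67.4 to 458 CPM per kb. No label names the annotation used for counting, so the order of levels per length depends on it.

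Summed H/ACA levels were 267, 328 and 342 CPM in whole-cell control, 335, 337 and 290 CPM in whole-cell miR-27a, 471, 440 and 473 CPM in pulldown control, and 429, 458 and 359 CPM in pulldown miR-27a libraries. Summed C/D levels were 98.9, 117 and 113 CPM, then 110, 115 and 97.6 CPM, then 171, 157 and 166 CPM, then 150, 174 and 139 CPM, in the same order. Summed Cajal body levels were 342, 335 and 337 CPM, then 326, 323 and 310 CPM, then 649, 545 and 603 CPM, then 625, 566 and 552 CPM. In every class, each pulldown library lay above each whole-cell library, and within whole-cell or pulldown RNA the mimics overlapped in the H/ACA and C/D sums. The Cajal body sums of the whole-cell groups did not overlap, with a mean of 338 ± 3.83 CPM under control mimic and 320 ± 8.59 under miR-27a (SD, n = 3).

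From whole-cell to pulldown RNA under control mimic, H/ACA sums went from 312 ± 39.6 to 461 ± 18.5 CPM (1.48-fold), C/D sums from 110 ± 9.5 to 165 ± 6.69 CPM (1.5-fold) and Cajal body sums from 338 ± 3.83 to 599 ± 52.0 CPM (1.77-fold; SD, n = 3 each). Under miR-27a the ratios were 1.30, 1.44 and 1.82. The ratio of the H/ACA to the C/D sum was 2.84 ± 0.17 in whole-cell control, 2.98 ± 0.061 in whole-cell miR-27a, 2.80 ± 0.049 in pulldown control and 2.69 ± 0.15 in pulldown miR-27a libraries (SD, n = 3). Without the 3 most abundant H/ACA RNAs it was 0.54, 0.56, 0.58 and 0.57. Under control mimic the ratios of whole-cell and pulldown libraries overlapped, and under miR-27a they did not, the lowest whole-cell ratio being 2.93 and the highest pulldown ratio 2.85. Without those 3 RNAs the ratios overlapped under miR-27a too, at 0.547 to 0.570 in whole-cell and 0.524 to 0.590 in pulldown libraries. Together the 116 RNAs made up 0.073% of all CPM in whole-cell control and 0.126% in pulldown control libraries.

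**Figure D2:**
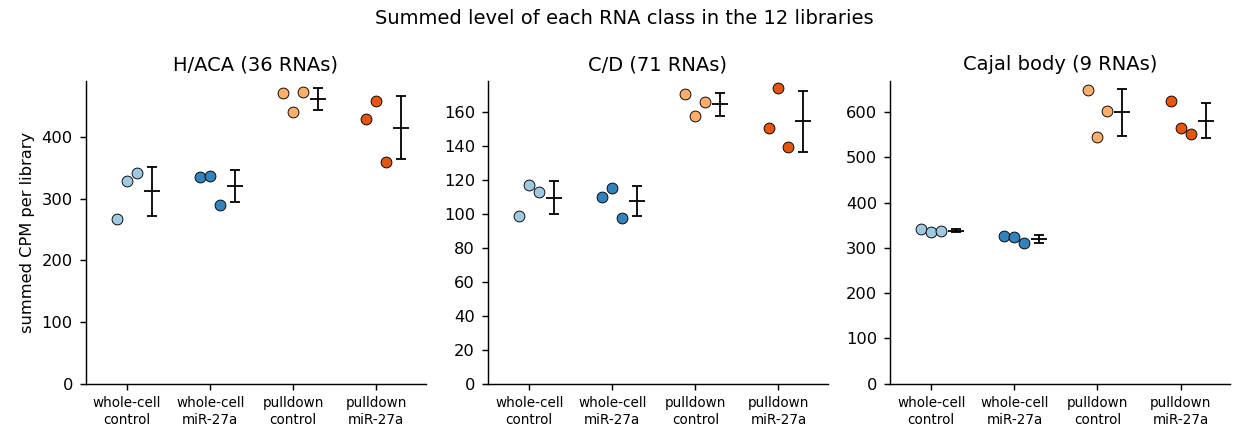
Summed CPM of the 36 H/ACA, 71 C/D and 9 Cajal body RNAs in each of the 12 libraries, with points for libraries and bars for the group mean and SD (n = 3). In all 3 panels the 6 pulldown libraries sit above the 6 whole-cell libraries.

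The contrast of pulldown with whole-cell RNA asks which RNAs were higher in the biotin pulldown than in the whole-cell libraries. No group lacked biotin, so RNA held by a mimic and RNA retained otherwise cannot be told apart. RNAs of all 3 classes were higher in pulldown RNA. Of the 48 members that passed the filter in whole-cell libraries, 35 rose under control mimic and 0 fell, beside 31.5% of all genes that passed there rising (limma on log2(CPM + 1), Benjamini-Hochberg adjusted p under 0.05). Over all 71 measured members, 47 rose and 0 fell, beside 31.7% rising and 30.3% falling among the 13875 genes tested. At an unadjusted p under 0.05, 48 were higher and 0 lower, beside 4653 higher and 4410 lower of the 13875 genes. That larger set holds 22 RNAs that passed the filter only through pulldown libraries and had to be higher there. The 45 RNAs below the filter also summed higher, 9.94 ± 1.14 CPM in whole-cell and 15.7 ± 0.325 CPM in pulldown control libraries (SD, n = 3).

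By class, among the 48 that passed in whole-cell libraries, 16 of 22 H/ACA RNAs rose with a median difference of 0.50 (log2 of CPM + 1), 13 of 20 C/D RNAs with a median of 0.49, and 6 of 6 Cajal body RNAs with a median of 0.82, beside a median of 0.02 over all genes tested. Under miR-27a mimic, 43 of 71 rose and 0 fell, beside 29.3% of all genes rising and 30.9% falling. At an unadjusted p under 0.05, 50 members were higher and 0 lower, beside 4348 higher and 4539 lower of 13875 genes. Of the 48 that passed in whole-cell libraries 30 rose, beside 29% of all genes that passed there. By class these were 14 of 22 H/ACA RNAs (median 0.36), 12 of 20 C/D RNAs (median 0.48) and 4 of 6 Cajal body RNAs (median 0.69), beside a median of -0.01 over all genes. No test of the class difference was made because members of a class are not replicates. The log2(CPM + 1) scale understates changes of low genes, and the classes differ in level. As log2 ratios of CPM, medians over the measured H/ACA, C/D and Cajal body RNAs were 0.64, 0.78 and 0.87 under control mimic. Under miR-27a they were 0.57, 0.78 and 0.82. The H/ACA and C/D sets there include RNAs that passed the filter only through pulldown libraries. Scaled by library totals, 60.2% of the genes called under miR-27a were higher instead of 48.7%. With limma voom on recovered reads, which also used library totals, the median of all genes shifted by 0.10. Members higher were then 53 of 72 and 52 of 71, beside 5009 of 13880 and 4932 of 13875 genes.

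**Figure D3:**
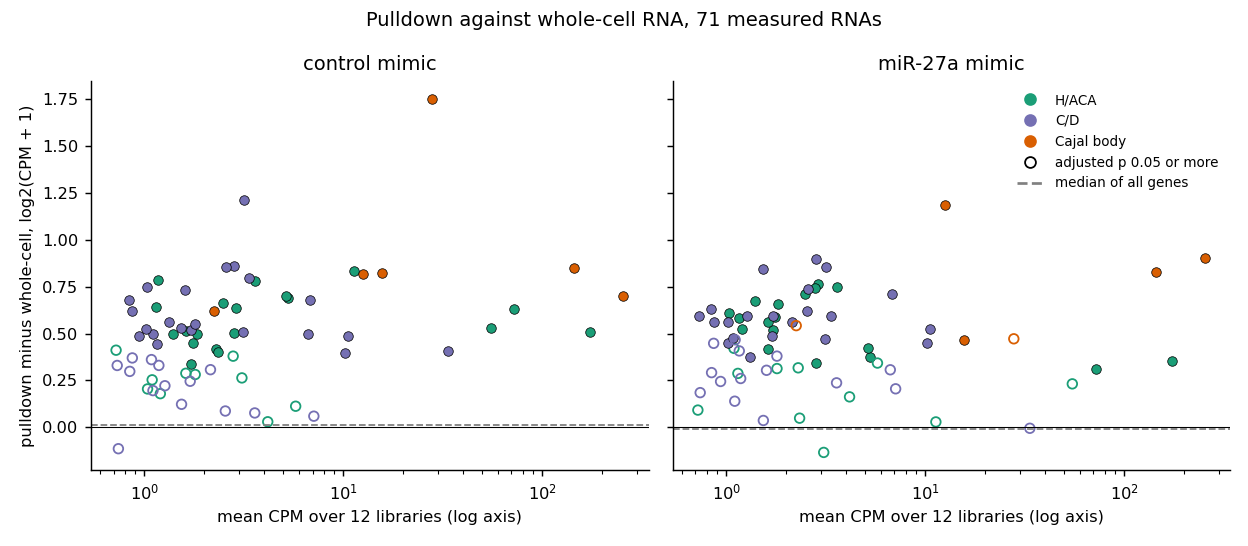
Pulldown minus whole-cell difference on the log2(CPM + 1) scale against mean CPM (log axis) for the 71 measured RNAs, under control mimic (left) and miR-27a mimic (right); filled points have an adjusted p under 0.05 and the dashed line is the median of all genes tested. Most points lie above the line, and no filled point lies below 0.

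Among the Cajal body RNAs, Scarna2, a guide for the U2 small nuclear RNA, had the largest difference under control mimic. It was at 9.31, 18.5 and 10.6 CPM in whole-cell control and at 39.6, 41.5 and 50.7 CPM in pulldown control libraries. All 3 pulldown values lie above the highest whole-cell value, and the difference was 1.75 ± 0.22 (SE, adjusted p = 1.4e-06). Under miR-27a it was at 19.8, 24.0 and 23.1 CPM in whole-cell and 21.2, 31.4 and 45.4 CPM in pulldown libraries. These ranges overlap, and the difference of 0.47 ± 0.22 did not pass (adjusted p = 0.0665). It was 0.74 without pulldown miR-27a replicate 1 (adjusted p = 0.00204) and 0.21 without replicate 3 (adjusted p = 0.414), and with the replicate block the adjusted p was 0.0235.

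Scarna10 was at 204, 190 and 192 CPM in whole-cell control, 183, 180 and 166 CPM in whole-cell miR-27a, 342, 290 and 326 CPM in pulldown control, and 371, 328 and 296 CPM in pulldown miR-27a libraries. Every pulldown library was above every whole-cell library, by 0.70 ± 0.08 under control mimic and 0.90 ± 0.08 under miR-27a (adjusted p = 3.72e-07 and 1.76e-08). Scarna13, an H/ACA-type RNA of the Cajal body, was at 107, 103 and 110 CPM, then 101, 96.1 and 104 CPM, then 226, 174 and 183 CPM, then 188, 165 and 184 CPM in the same order. Its pulldown and whole-cell libraries likewise did not overlap, with differences of 0.85 ± 0.08 and 0.83 ± 0.08. Scarna6 rose by 0.82 ± 0.15 and 0.47 ± 0.15, and the latter call ended on leaving out replicate 3 of whole-cell miR-27a (0.30, adjusted p = 0.11) or replicate 1 of pulldown miR-27a (0.34, adjusted p = 0.0677). Scarna17 rose by 0.62 ± 0.23 under control mimic (adjusted p = 0.0283), and its 0.54 ± 0.23 under miR-27a did not pass (adjusted p = 0.0528).

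Scarna9, a guide for the U2 small nuclear RNA, is the only one of 115 members with a GENCODE sequence that holds the miR-27a 8mer, which 0.277% of the 1442 other transcripts hold. It was at 8.48, 8.11 and 9.14 CPM in whole-cell control, 7.76, 7.58 and 6.47 CPM in whole-cell miR-27a, 16.4, 16.4 and 14.8 CPM in pulldown control, and 21.4, 21.6 and 12 CPM in pulldown miR-27a libraries. The pulldown libraries lay above the whole-cell ones under both mimics, by 0.82 ± 0.16 and 1.18 ± 0.16 (adjusted p = 0.000173 and 3.31e-06), the latter the largest of the 71 under miR-27a. The difference between mimics, 0.37 ± 0.22, did not pass (adjusted p = 0.512), and pulldown miR-27a replicate 3 was below all pulldown control libraries. A 7mer site was found in 2 other members: ACTGTGA in Snord32a and CTGTGAA in Snora17, letters that 0.624% and 8.18% of the other transcripts hold. For these the difference between mimics was -0.07 ± 0.23 and -0.32 ± 0.17, neither past the threshold (adjusted p = 0.94 and 0.456).

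Among H/ACA RNAs, Snora73a was at 119, 161 and 166 CPM in whole-cell control, 157, 153 and 138 CPM in whole-cell miR-27a, 223, 191 and 216 CPM in pulldown control, and 205, 207 and 163 CPM in pulldown miR-27a libraries. The pulldown libraries were the higher ones under control mimic, by 0.51 ± 0.11 (adjusted p = 0.000546), and by 0.35 ± 0.11 under miR-27a (adjusted p = 0.00934), where the lowest pulldown library still exceeded the highest whole-cell one. Its near copy Snora73b rose by 0.63 ± 0.10 and 0.31 ± 0.10, and the call under miR-27a ended on leaving out replicate 3 of whole-cell miR-27a (0.21, adjusted p = 0.109) or replicate 2 of pulldown miR-27a (0.18, adjusted p = 0.062). Snora74a, another abundant H/ACA RNA, rose by 0.53 ± 0.12 under control mimic, and its 0.23 ± 0.12 under miR-27a did not pass. Snora61, which overlaps an exon of its host Snhg12, rose from 2.40 ± 0.49 to 4.83 ± 0.75 CPM under control mimic and from 2.46 ± 0.62 to 4.78 ± 0.87 CPM under miR-27a (SD, n = 3), by 0.78 ± 0.16 and 0.75 ± 0.16. Snora28 and Snora81, picked out after their values were seen, gave 0.03 ± 0.15 and 0.11 ± 0.15 under control mimic at mean levels of 4.17 and 5.76 CPM, and neither was called.

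Among C/D RNAs, Snord49a was at 1.47, 2.01 and 1.20 CPM in whole-cell control, 2.48, 1.72 and 1.63 CPM in whole-cell miR-27a, 5.03, 5.71 and 4.0 CPM in pulldown control, and 4.14, 4.26 and 4.42 CPM in pulldown miR-27a libraries. All 6 pulldown libraries exceeded all 6 whole-cell libraries, by 1.21 ± 0.16 and 0.85 ± 0.16 (adjusted p = 2.38e-06 and 0.000122). Snord43 rose by 0.86 ± 0.16 and 0.90 ± 0.16, and Snord52 by 0.85 ± 0.14 and 0.73 ± 0.14. Snord118 was at 1.91, 2.90 and 2.80 CPM in whole-cell control and 4.67, 4.83 and 5.87 CPM in pulldown control libraries, with no overlap and a difference of 0.80 ± 0.15 (adjusted p = 0.00011). Under miR-27a it rose by 0.60 ± 0.15.

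Snord22 and the Snord14 copies act in cleavage of the ribosomal RNA precursor, and Snord13 guides acetylation of the small-subunit RNA. Snord22 rose by 0.49 ± 0.15 and 0.52 ± 0.15. Its call under control mimic ended on leaving out replicate 1 of whole-cell control (0.31, adjusted p = 0.0752) or of pulldown control (0.32, adjusted p = 0.0741). Snord13 rose by 0.73 ± 0.19 under control mimic, and its 0.30 ± 0.19 under miR-27a did not pass. The 4 measured Snord14 copies were at 0.68 to 0.775 CPM in whole-cell control and 1.28 to 1.54 CPM in pulldown control libraries (group means), all 4 passed the filter only through pulldown RNA, and Snord14c and Snord14d match at 97.7% of aligned bases. Snord17, the most abundant C/D RNA, rose by 0.41 ± 0.15 under control mimic (adjusted p = 0.0287), and its difference under miR-27a was -0.0045 ± 0.15. The call under control mimic ended on leaving out replicate 1 of whole-cell control (0.31, adjusted p = 0.131), or replicate 1 (0.43, adjusted p = 0.054) or 3 (0.32, adjusted p = 0.126) of pulldown control. Snord2 and Snord64, picked out after their values were seen, gave 0.08 ± 0.14 and 0.06 ± 0.15 under control mimic and were not called.

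Host genes were set beside the RNAs they hold, since reads from unspliced or spliced host RNA can fall within a snoRNA. Of the 71 measured RNAs, 40 overlap an exon of a same-strand GENCODE host, 24 lie only in an intron and 7 lie in no such host. A host missing from that annotation would not be seen. In 61 pairs both were tested, and in 38 of these, with 30 hosts, the RNA passed the filter in whole-cell libraries. The other 23 RNAs did not, so their place above the host rests partly on the filter. Over the 38 pairs under control mimic, the median difference was -0.08 for hosts and 0.50 for the RNAs, and the RNA lay above its host in 35. Of the 26 RNAs that rose in these pairs, the host rose in 10, fell in 8 and was not called in 8. Under miR-27a the RNA lay above its host in 34 of 38 pairs, and of 27 RNAs that rose, the host rose in 9, fell in 4 and was not called in 14.

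In some pairs host and RNA went opposite ways. Rpl3, a ribosomal protein gene, fell by 0.29 ± 0.07 on the log2(CPM + 1) scale under control mimic while its intronic Snord43 rose by 0.86 ± 0.16. Snx5 fell (-0.50 ± 0.06) while Snord17 rose. Likewise, in a pair picked out after its values were seen, Tpt1 fell (-0.50) while Snora31 rose by 0.34 ± 0.14. The noncoding host Snhg12 rose by 0.54 and its 4 RNAs (Snora16a, Snora44, Snora61 and Snord99) rose by 0.50 to 0.78. The 2 members in Snhg3, Snora73a and Snora73b, rose while Snhg3 itself gave 0.12 ± 0.11, not called. All 7 RNAs for which GENCODE gave no same-strand host rose under control mimic, and 3 of the 7 rose under miR-27a. These 7 included Scarna2, Snora17, Snord118, Snord13 and Snord104. Among RNAs that passed in whole-cell libraries, 18 of 29 over a host exon and 10 of 12 in introns only rose under control mimic. Under miR-27a the counts were 19 of 29 and 8 of 12. Of all genes that passed in whole-cell libraries, 31.5% rose under control mimic and 29% under miR-27a. Differences between these sets of RNAs were not tested.

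**Figure D4:**
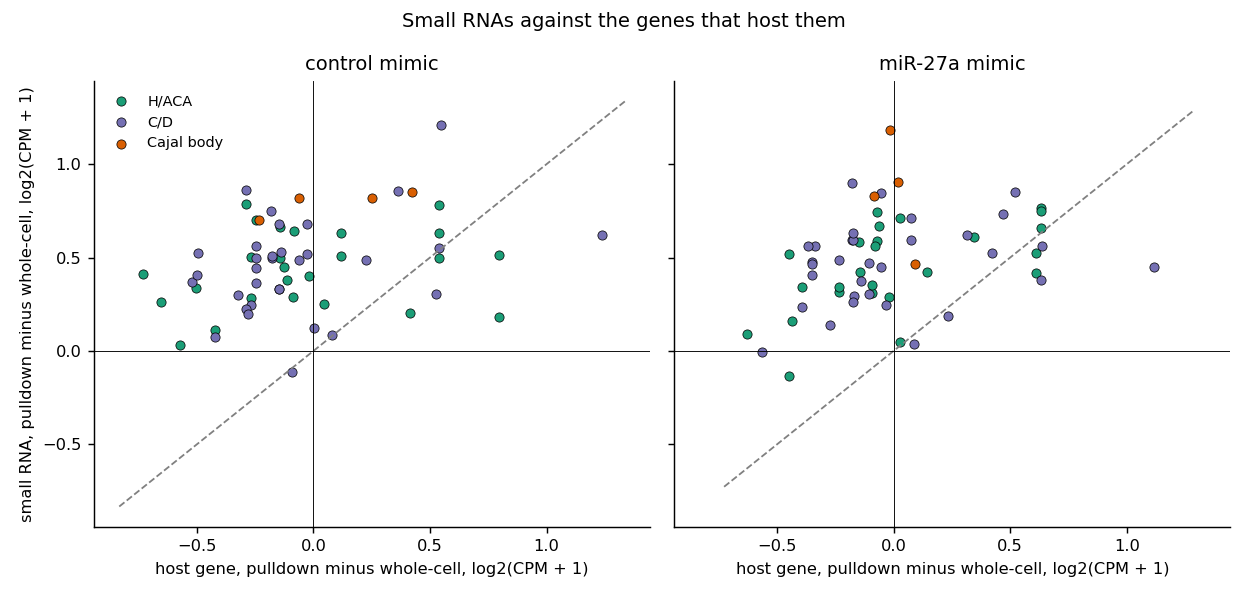
Pulldown minus whole-cell difference on the log2(CPM + 1) scale of each small RNA against that of its host gene, for 61 pairs under control mimic (left) and miR-27a mimic (right), with the dashed line at equal differences. In each panel 54 of 61 points lie above the dashed line, 23 of the 61 RNAs having failed the filter in whole-cell libraries.

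Read density was compared between each RNA and its host. Per kilobase (GENCODE lengths, host exons only), 19 of 62 RNAs had a higher mean level than their host and 43 a lower one, 21 of them under 0.1 times the host's: 8 of 26 H/ACA, 7 of 32 C/D and 4 of 4 Cajal body RNAs exceeded it. Cajal body RNAs were 9.51 to 80.7 times as dense as their hosts, and Snora73a was 93.2 times as dense as Snhg3. Snord43, by contrast, had 0.080 of the density of Rpl3, and Snora64 0.045 of that of Rps2. For the 43 RNAs below their host's density, the share of reads that belongs to host RNA was not tested.

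The mRNAs of the proteins that bind these RNAs were read from gene lists, to be set against the 31.7% of all genes that rose and 30.3% that fell under control mimic. Of the 4 H/ACA core protein genes, 0 rose and 3 fell in pulldown RNA under control mimic, with Dkc1, the pseudouridine synthase, at -0.79 ± 0.10. Of the 5 C/D core protein genes, 0 rose and 3 fell, with Fbl, the methyltransferase, at -0.52 ± 0.09 and Nop58 at -0.77 ± 0.09. Of 17 assembly and processing genes 0 rose and 11 fell, and of 12 Cajal body and SMN complex genes 1 rose and 4 fell. Noncoding snoRNA host genes went the other way: 12 of 17 rose and 1 fell, led by Rian, the imprinted host of a C/D cluster, at 1.44. Under miR-27a, where 29.3% of all genes rose and 30.9% fell, these 5 lists gave 0 up and 2 down, 1 and 3, 1 and 8, 2 and 3, and 12 and 1.

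Other structured small RNAs moved in both directions. Of 9 tested, 2 rose and 4 fell under control mimic, beside the same shares of all genes (31.7% and 30.3%). Rpph1, the RNA of ribonuclease P, fell (-1.14), as did Rn7sk (-0.52), Rny1 (-1.70) and Rny3 (-1.10). Rmrp, the RNA of the related ribonuclease MRP, rose by 0.43. Terc, the telomerase RNA, which ends in an H/ACA domain, was at 1.69 CPM in whole-cell control and 2.55 CPM in pulldown control libraries, and its difference of 0.38 did not pass (adjusted p = 0.062). Of 8 nuclear long non-coding RNAs, 4 rose and 4 fell, with Xist at 1.58, Rian at 1.44, Miat at 1.08, Malat1 at -1.05 and Neat1 at -1.27.

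The mimics were compared within whole-cell RNA to see whether members changed in the cells. Of 48 tested members, 1 rose and 1 fell, beside 24.9% of all genes called (13% higher, 11.9% lower). The median standard error was 0.15 over these members and 0.07 over all genes, so fewer calls do not show that members changed less. None of 22 H/ACA and none of 20 C/D RNAs passed (limma), with medians of 0.02 and -0.02. At an unadjusted p under 0.05, 2 H/ACA RNAs (Snora73b and Snora43, both higher under miR-27a) and 0 C/D RNAs were counted. Beside these, 2567 of 13393 genes were higher and 2275 lower. With limma voom 2 members in all were also called, beside 1909 genes higher and 1490 lower. Both called members were Cajal body RNAs. Scarna2 rose by 0.81 ± 0.15 under miR-27a (adjusted p = 0.000227), and its 3 miR-27a libraries lay above its 3 control libraries. Scarna10 fell by 0.15 on the log2 scale (SE 0.04, adjusted p = 0.00953), with no overlap, while its host Ncapd2, a condensin subunit gene, rose by 0.39 ± 0.05. On leaving out replicate 3 of whole-cell miR-27a the Scarna10 call was lost (-0.11, adjusted p = 0.101), as it was with all 12 libraries in 1 fit (-0.15, adjusted p = 0.264).

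Among genes for the proteins that bind these RNAs, a few rose in this comparison. Of the 5 C/D core protein genes 3 rose under miR-27a, beside 13% of all genes: Nop56 by 0.16 ± 0.04, Nop58 by 0.14 ± 0.04 and Rrp9 by 0.19 ± 0.07. Of 17 assembly and processing genes 1 rose and 0 fell. The 1 was Nolc1, which shuttles snoRNA particles between nucleolus and Cajal body, at 0.24 ± 0.04. Of 12 Cajal body and SMN complex genes 0 rose and 1 fell, beside 11.9% of all genes falling. None of the 4 H/ACA core protein genes passed, Dkc1 being at 0.11 ± 0.06.

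Within pulldown RNA, 0 of 70 tested members rose and 4 fell under miR-27a, beside 13.1% of all genes called (6.05% higher, 7.06% lower). The median standard error was 0.18 over the members and 0.11 over all genes, which limits the comparison of these shares. At an unadjusted p under 0.05, 11 members were lower and 0 higher, beside 1905 lower and 1661 higher of 13586 genes. With limma voom 2 members were called lower, beside 816 genes lower. With the replicate number as a block, which treats libraries of the same number as pairs, 5 fell. Scarna2 joined the 4, at -0.47 (adjusted p = 0.00738, against 0.116 without the block). The genes called went from 822 higher and 959 lower to 1274 and 1469. Snora78 was at 17.4, 15.8 and 15.6 CPM in pulldown control and 10.7, 10.1 and 9.87 CPM in pulldown miR-27a libraries. The groups are far apart relative to their spread, and the difference was -0.62 ± 0.11 (adjusted p = 0.00178), the most stable of the 4: it passed under every alternative tried. Snora23 was at 3.48, 4.44 and 4.29 CPM and then 2.74, 2.33 and 2.05 CPM, without overlap (-0.59 ± 0.16, adjusted p = 0.0246).

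Scarna6 was at 22.4, 19.4 and 26.7 CPM in pulldown control and 19.2, 17.2 and 12.2 CPM in pulldown miR-27a libraries (-0.48 ± 0.15, adjusted p = 0.0478). Snord17 was at 40.3, 38.1 and 46.5 CPM and then 32.0, 37.2 and 23.1 CPM (-0.44 ± 0.14, adjusted p = 0.0474). For both, pulldown miR-27a replicate 3 was the lowest of the 6 libraries; without it the calls were lost (-0.30, adjusted p = 0.25, and -0.26, adjusted p = 0.254). They were also lost without pulldown control replicate 1 or 3, and that of Snord17 without replicate 2 (adjusted p = 0.0708). Library totals, limma voom, a 5 CPM filter and no filter ended both calls too, with adjusted p of 0.0518 to 0.153. Snora23 lost its call without pulldown control replicate 2 or 3, or pulldown miR-27a replicate 3 (adjusted p = 0.0971, 0.0905 and 0.118), and with no filter (adjusted p = 0.068). The host of Snord17, Snx5, also fell in this comparison (-0.35 ± 0.08), and the host of Snora23, Ipo7, rose by 0.32 ± 0.10.

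The last comparison is the difference between mimics of the pulldown contrast, which sets each pulldown group beside the whole-cell libraries of its mimic. Of 71 members, 2 were lower under miR-27a and 0 higher, beside 1.07% of all genes called (0.735% lower). Snora78 went from 8.81 ± 1.9 to 16.3 ± 1.0 CPM under control mimic and from 10 ± 0.92 to 10.2 ± 0.42 CPM under miR-27a (SD, n = 3), a difference of -0.80 ± 0.17 (adjusted p = 0.0286). Its whole-cell libraries were at 7.14, 10.9 and 8.41 CPM under control mimic and 10.4, 10.7 and 8.95 CPM under miR-27a, so pulldown control alone stood above the rest. Snora78 lies within Snhg9, which was under 1 CPM, and antisense to Rps2. No label says whether counting used strand, so its reads and those of Rps2 may not be told apart; Rps2 itself gave 0.05 ± 0.10 in this comparison (adjusted p = 0.874).

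Scarna2 gave -1.28 ± 0.31 (adjusted p = 0.0486). Its mean whole-cell level was 12.8 ± 5.0 CPM under control mimic and 22.3 ± 2.2 under miR-27a, and its mean pulldown level 43.9 ± 5.9 and 32.7 ± 12.2 CPM (SD, n = 3). That of Scarna2 was lost at a pseudocount of 0.25 (-1.33, adjusted p = 0.0501), with each other filter, scaling or voom alternative (adjusted p = 0.0524 to 0.181), and in 8 of 12 fits without 1 library. That of Snora78 was lost with no filter (adjusted p = 0.0985) and in 8 of 12 such fits, with adjusted p of 0.00917 to 0.0994 over them. Median differences were -0.04 over the H/ACA RNAs and -0.02 over the C/D RNAs, beside -0.01 over all genes.

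**Figure D5:**
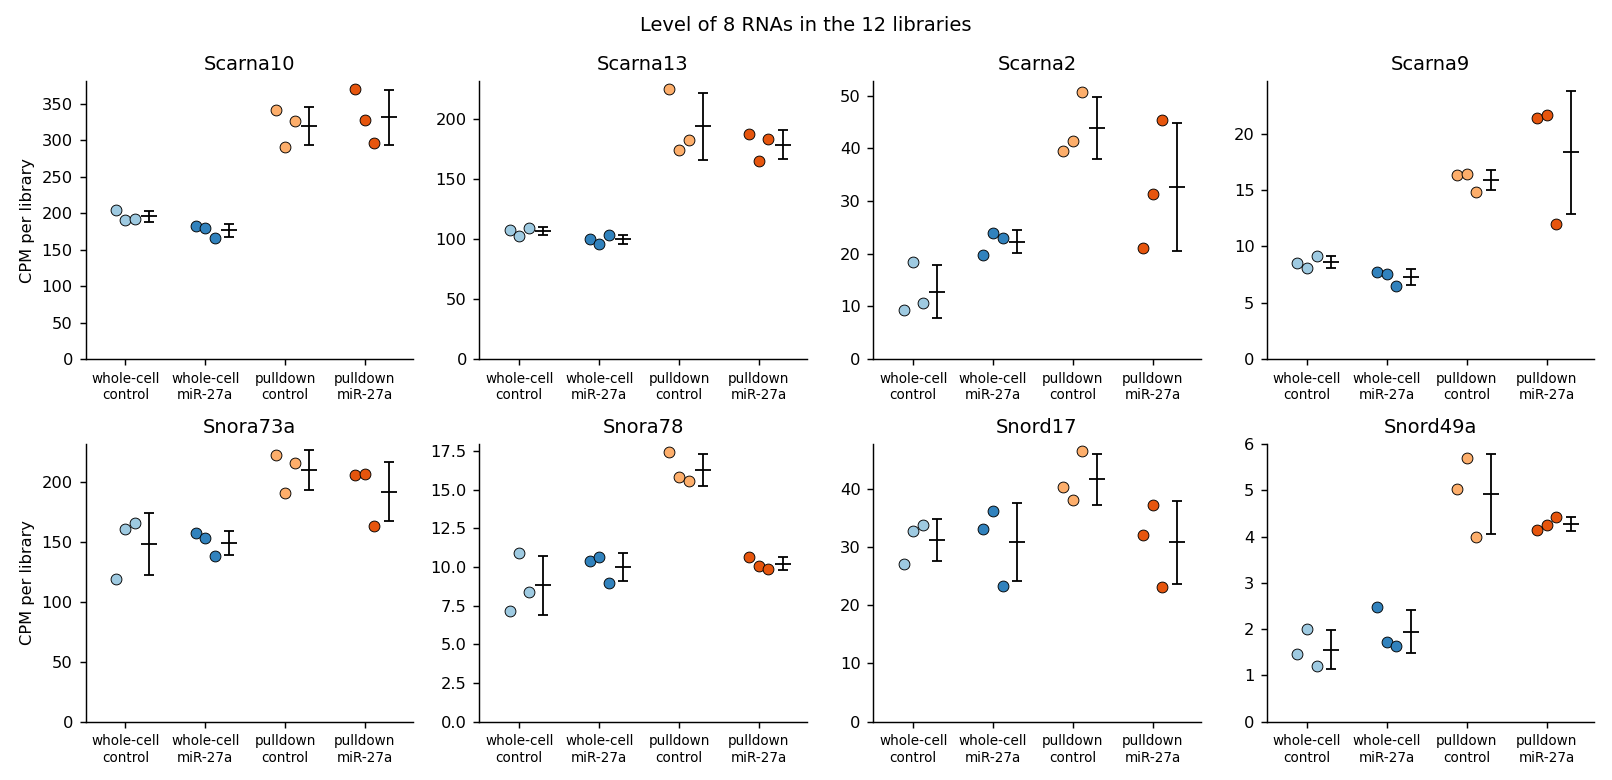
CPM of 8 RNAs in each of the 12 libraries, with points for libraries and bars for the group mean and SD (n = 3). Scarna2 and Snora78 are high in pulldown control, where Snora78 is at 15.6 to 17.4 CPM against 7.14 to 10.9 CPM in the other 9 libraries.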

How the data were processed

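Per the series' design text, total RNA libraries were made with a stranded kit after ribosomal and globin depletion, aligned with HISAT2 to GRCm38 and counted per gene with featureCounts of Subread, and the authors normalised the counts with edgeR. No source used here gives tool versions, the annotation or the strand setting of the counting, and the submitters' processing notes also name mm8, with no role. The authors deposited log2 CPM values for 20540 genes. The lowest value in every library, -6.27, stands for 0 reads, so that CPM and whole reads could be recovered (100% of values up to 1000 reads came out whole, within 0.05 reads). Recovered CPM summed to 1027002 to 1040876 in whole-cell and 948073 to 979400 in pulldown libraries, so they keep the authors' scaling. A table of log2 CPM was tested on the log scale.

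Tests used limma 3.58.1 in R 4.3.3 (lmFit and eBayes with a trend) on log2(CPM + 1), a scale that understates changes of low genes, over genes that reached 1 CPM in 3 or more of the fitted libraries, two-sided, with Benjamini-Hochberg adjustment over all genes tested and a threshold of 0.05. Mimics were compared within the 6 whole-cell or the 6 pulldown libraries, and pulldown with whole-cell RNA in 1 fit of all 12, which pools the spread over the 4 groups. Errors of differences are standard errors. The fit of the mimic comparisons was tested on simulated data, without the genes of lowest mean level. The pulldown contrasts and their difference between mimics were not simulated. Pulldown control and pulldown miR-27a libraries of the same number deviated together (r = 0.24, 0.45 and 0.22), and whole-cell pairs gave -0.01, -0.13 and 0.03. Same-numbered whole-cell and pulldown libraries gave 0.04, 0.26 and 0.24 under miR-27a and -0.08, -0.19 and 0.05 under control mimic. Libraries of unlike number reached 0.38 (whole-cell control 1 with pulldown miR-27a 2). Whether numbers mark pairs is therefore not settled, and the block was an alternative, not the main fit.

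Lengths, strands and hosts came from GENCODE M21 (GRCm38) and RefSeq (GRCm38.p6); each of these matched 115 of 116 members. A host is the shortest same-strand gene in the deposited values that contains the RNA. Named were the 6 H/ACA, 6 C/D and 4 Cajal body RNAs of highest mean CPM, up to 6 rises and 6 falls in a comparison (4 per class), a fixed set (Snord118, Snord13, the Snord14, Snora73 and Snora74 copies, Snord17, Scarna2, and Snord3, Snord115 and Snord116 where measured), their hosts, Terc, Rmrp, Rpph1 and Rn7sk, and up to 4 genes per list. Members, lists and rules were chosen with earlier results of these data known. Alternatives were a pseudocount of 0.25, no filter or 5 CPM, library totals, median-of-ratios scaling, the replicate block, array weights, other libraries in the fit, limma voom on recovered reads, and leaving out each library. The voom fit took its depth from total recovered reads, so it left out the authors' scaling as library totals did. Python 3.11.15, pandas 2.3.3, numpy 2.4.6, Biopython 1.88 and matplotlib 3.10.9 were used. The marker list of mature oligodendrocytes is not reported here.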

Additional observations from a re-analysis of the deposited data

Results flagged for a closer look

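Snora78 and Scarna2 each differed between the mimics in the contrast of pulldown with whole-cell RNA, by the test of that difference itself. For Snora78 it was -0.80 on the log2(CPM + 1) scale, with pulldown control libraries at 15.6 to 17.4 CPM. For Scarna2 it was -1.28, with higher whole-cell levels under miR-27a. Both calls were lost in most fits that left out 1 library. That of Scarna2 was also lost with the other pseudocount, filters, scalings and voom, and that of Snora78 with no filter.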

How the results depend on the processing

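Members called between the mimics in whole-cell RNA were 2, and 1 with all 12 libraries in 1 fit. That fit called 760 of 13875 genes higher and 655 lower. In pulldown RNA they were 4, and 1 with no filter, 1 at 5 CPM, 2 with library totals and 2 with voom, and 1 to 7 when 1 library was left out. All were lower. Over all genes, 672 of 19772 were lower with no filter, 890 of 11088 at 5 CPM, 823 of 13636 with library totals and 816 of 13586 with voom. The count of 7 had 1424 of 13486 genes lower beside it. For the difference between mimics they were 2, and 1 at a pseudocount of 0.25, 0 with no filter, 1 at 5 CPM, 1 with library totals, 1 with median-of-ratios scaling, 1 with voom, 9 with array weights, and 0 to 3 when 1 library was left out. The 9 were all lower, beside 1047 of 13875 genes lower with array weights and 102 in the main fit. The count of 3 had 314 of 13829 genes lower beside it. With the other settings named, 43 to 106 genes were lower. Members higher in pulldown RNA were 47 under control mimic and 43 under miR-27a, and 16 and 11 of the 18 left at 5 CPM, 34 to 47 and 36 to 45 when 1 library was left out, and 35 and 30 over those that passed in whole-cell libraries, an alternative chosen after seeing the data. Over all genes, 3793 and 3487 of 11294 were higher at 5 CPM, and 3969 to 4625 and 3583 to 4097 when 1 library was left out. With a filter of 5 CPM fewer genes are tested, and over members passing in whole-cell libraries fewer members are counted from the same fit. The cause of the other changes was not tested.

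The log2 ratio of pulldown to whole-cell C/D sums was 0.59 under control mimic and 0.52 under miR-27a, and 0.78 and 0.78 as a median over members. For the Cajal body sums it was 0.83 under control mimic and 0.97 without Scarna10. Their miR-27a to control ratio in whole-cell RNA was -0.08, and 0.0090 without Scarna10. Snora73a gave 0.02 between mimics in whole-cell RNA, not called, and -0.13 to 0.11 when 1 library was left out, the lowest being called (adjusted p = 0.0282) when replicate 1 of whole-cell control was the one left out. With the replicate block, members called were 2 in whole-cell RNA, 5 in pulldown RNA, 45 and 45 in pulldown against whole-cell RNA, and 2 for the difference between mimics. Of 13875 genes, 4400 and 4094 were then higher in pulldown against whole-cell RNA, and 115 were lower for the difference between mimics. Among named members the block changed the calls of Scarna2 given above and that of Snora81 in pulldown against whole-cell RNA under miR-27a (0.34, adjusted p = 0.041), and no other. Depth limits most members: a library's single read was worth 0.039 to 0.067 CPM, which covers counting error only.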
